A study of Mus musculus with 16 samples.

Results

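The 10 genes described here are interferon-stimulated genes with antiviral roles: Irf7, Zbp1, Ifit1, Ifit3, Oas1a, Oas2, Oasl1, Mx1, Mx2 and Rsad2. They were taken by name, through their Ensembl identifiers, from the 6288 genes of the authors' table, and all 10 were found and tested among 6110 genes. The 16 libraries were made from bone marrow that had been depleted of lineage-positive cells and selected for Kit and Sca1 (the LSK stem and progenitor compartment), with CD45-positive cells as the labelled cell type. Donors were Tet2-deficient mice (Tet2-/-, the allele not described further in the labels) and WT mice, both carrying CD45.2, of the C57Bl/6J strain and aged 3 to 4 months and of both sexes. There were 4 groups with 4 matched biological replicates each: Tet2-deficient cells in physioxia, Tet2-deficient cells in air, WT cells in physioxia and WT cells in air. All cells were harvested and enriched in a chamber at 3% oxygen, so the air groups had also been at 3% oxygen first. For the air groups, a share of the same enriched cells was then moved to room air, near 21% oxygen, for 6 hours by the extraction protocol (the general treatment protocol gives a range of 1 to 6 hours), whereas the physioxia groups stayed in the chamber. Which mouse gave which library, and how many mice a library holds, were not given in the sources used here.

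Interferons are cytokines that cells release when they sense viral or misplaced nucleic acid. Type I interferons signal through the Ifnar1 and Ifnar2 receptor chains and the kinases Jak1 and Tyk2, and the signal ends at a short DNA element, the interferon-stimulated response element, in the promoters of the target genes. The products of those genes block viral RNA, proteins and replication at many steps, and hematopoietic stem cells are known for keeping a low constant level of many of them. Tet2 is an enzyme that oxidises methylated cytosine in DNA and uses molecular oxygen in doing so. In most inbred laboratory strains, C57BL/6 among them, both Mx genes carry defects that prevent a functional protein, so their RNA is read here as a transcript level only.

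Tet2 itself averaged 554 ± 54.1 normalized counts in Tet2-deficient air libraries, against 855 ± 157 in WT air libraries, and 482 ± 35.9 in Tet2-deficient physioxia libraries, against 731 ± 97.4 in WT physioxia libraries (SD, n = 4 each). A normalized count is a read count divided by the library's size factor, as the authors deposited it. Tet2 was thus lower, with log2 differences of -0.61 in air and -0.59 in physioxia, but not absent, and the count per gene does not show which exons the reads came from. The libraries held 7770456 to 15683867 reads in the tabulated genes, and the 10 members took 1417 to 7261 of these per library. A single member had between 9 reads (Mx1 in Tet2-deficient physioxia replicate 3) and 2478 reads (Rsad2 in WT air replicate 1). Of 14 LSK markers 7 were measured, among them Kit with 6737 ± 1095 normalized counts in Tet2-deficient air libraries and 4099 ± 453 in WT air libraries, while Ly6a and Ptprc, which encode Sca1 and CD45, were not analysed here.

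Promoter sequences from RefSeq (GRCm38.p6, 250 bases before to 50 bases after the gene start) were matched for 6 of the 10 members: Ifit1, Ifit3, Irf7, Oas1a, Oasl1 and Rsad2. They are shown because every member's estimate was below 0 for Tet2-deficient minus WT, and the members are textbook targets of the interferon-stimulated response element. The core searched was GAAA, any 2 bases, then GAAA, on both strands. It was found in 4 of the 6 windows and in 3.44% of all 32851 promoters of the same length. With CT required after the core, 3 of the 6 windows held a match, against 0.271% of all promoters. The capitals mark the core matches in 120 bases of each of the 4 promoters, written 5′ to 3′ on the gene's own strand.
Ifit1 (chr19:34640719-34640838, plus strand, -170 to -51): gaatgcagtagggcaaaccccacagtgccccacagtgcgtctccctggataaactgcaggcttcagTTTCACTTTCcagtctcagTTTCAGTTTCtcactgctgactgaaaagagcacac
Ifit3 (chr19:34583339-34583458, plus strand, -190 to -71): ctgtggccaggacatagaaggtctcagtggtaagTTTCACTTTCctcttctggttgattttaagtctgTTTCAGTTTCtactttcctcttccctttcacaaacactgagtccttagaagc
Oas1a (chr5:120907526-120907645, minus strand, -120 to -1): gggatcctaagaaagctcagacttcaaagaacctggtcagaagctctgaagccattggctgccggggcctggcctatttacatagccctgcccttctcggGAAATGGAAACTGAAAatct
Rsad2 (chr12:26456493-26456612, minus strand, -160 to -41): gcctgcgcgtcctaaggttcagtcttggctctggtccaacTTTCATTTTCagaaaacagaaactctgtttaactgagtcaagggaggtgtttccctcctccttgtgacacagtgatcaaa
Ifit1 and Ifit3 each carried a pair of matches on the opposite strand, Oas1a an overlapping pair beside its start, and Rsad2 a single match. The windows of Irf7 and Oasl1 held no match to these letters. Tet2 acts on CpG dinucleotides, and the 6 windows held 1 (Ifit3), 3 (Oas1a), 4 (Ifit1), 6 (Rsad2), 7 (Irf7) and 8 (Oasl1) of them, beside a median of 7 over all promoters; DNA methylation was not measured in these samples.

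In both oxygen conditions most members were lower in Tet2-deficient than in WT cells, Oas2 (in both) and Zbp1 (in air) being those that did not pass the test. The difference was largest for Rsad2, at 7.47-fold in air and 7.92-fold in physioxia, followed in air by Mx1, Mx2 and Oasl1 at 4.39-fold, 3.92-fold and 3.79-fold. Irf7 and Oas1a differed by 1.51-fold and 1.498-fold in air. Moderated tests in limma with Benjamini-Hochberg adjustment over 6110 genes called 8 of 10 members lower in air, beside 37.4% of all genes tested, and 9 of 10 in physioxia, beside 33.6% of all genes. The median log2 difference of the members was -1.47 in air, beside 0.24 over all genes tested, and -1.18 in physioxia, beside 0.06. Every Tet2-deficient value lay below every WT value for 7 of 10 members in air, where 35.5% of all genes did so, and for 6 of 10 in physioxia, where 28% did so. Cells of mixed type were sequenced in bulk, so fewer cells of a type and less RNA per cell cannot be told apart here.

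**Figure D1:**
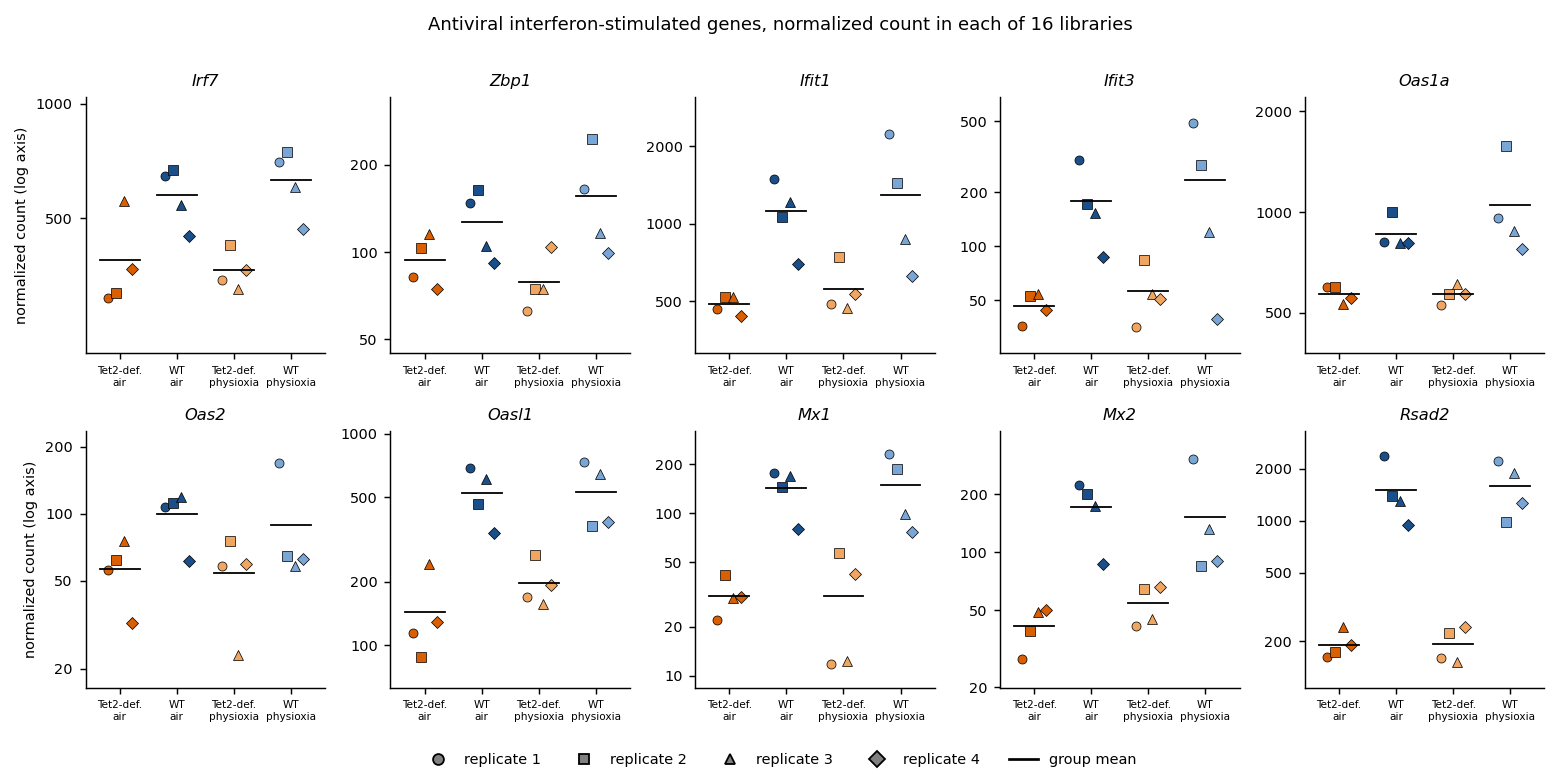
Normalized counts of the 10 members in each library, on a log axis that differs between panels; columns are Tet2-deficient air, WT air, Tet2-deficient physioxia and WT physioxia, symbols are replicates and bars are group means of 4 libraries. Rsad2 lies between 151 and 241 in all 8 Tet2-deficient libraries and between 941 and 2382 in all 8 WT libraries, while Oas2 and Zbp1 overlap between genotypes in both oxygen conditions.

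Irf7 (ENSMUSG00000025498, GRCm38 chr7:141262706-141266481, minus strand, protein-coding) is the transcription factor that drives most type I interferon gene induction and is itself induced by interferon. Irf7 had 309, 319, 554 and 367 normalized counts in the Tet2-deficient air libraries, against 646, 670.2, 541 and 448 in the WT air libraries (replicates 1 to 4 in order, here and for the other members). In physioxia it had 344, 426, 326 and 366 in Tet2-deficient libraries, against 703, 745, 603 and 469 in WT libraries. The air groups overlapped through Tet2-deficient replicate 3, which exceeded WT replicates 3 and 4, whereas the physioxia groups did not overlap. Irf7 was lower, with a log2 difference of -0.60 ± 0.20 (SE) in air (limma adjusted p = 0.0147) and -0.77 ± 0.20 in physioxia (limma adjusted p = 0.00379). Without WT replicates 1 and 2 of the same condition, which had the highest mean log2 levels of T and NK cell, plasmacytoid dendritic cell, and monocyte and macrophage markers in their group, the difference was -0.39 in air (limma adjusted p = 0.166) and -0.55 in physioxia (limma adjusted p = 0.0552). Summed over all members, these were also the highest WT libraries, at 6980 and 5389 in air and 8202 and 5981 in physioxia. Leaving them out thus lowers the WT sum by construction, for this and the other members. A part of the marker levels in the differences was not tested.

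Zbp1 (ENSMUSG00000027514, chr2:173206612-173218923, minus strand) encodes a sensor of left-handed, Z-form nucleic acid that starts necroptosis through Ripk3. Its level was 81.8, 103, 115 and 74.5 in Tet2-deficient air libraries, against 147, 164, 105 and 91.8 in WT air libraries. The corresponding physioxia values were 62.6, 74.5, 74.7 and 104 in Tet2-deficient libraries, against 165, 245, 117 and 99.01 in WT libraries. The groups overlapped in both conditions. The log2 difference was -0.42 ± 0.28 in air, which did not pass the test (limma adjusted p = 0.171, 95% confidence interval -1.01 to 0.18). In physioxia Zbp1 was lower, at -0.91 ± 0.28 (limma adjusted p = 0.00974). The physioxia call was lost without WT replicates 1 and 2 (-0.46, limma adjusted p = 0.154), and quantile normalization added a call in air (-0.70).

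Ifit1 (ENSMUSG00000034459, chr19:34640871-34650009, plus strand) and Ifit3 (ENSMUSG00000074896, chr19:34583531-34588731, plus strand) lie close together and encode proteins that bind viral RNA lacking host cap marks, with Ifit3 known to stabilise that binding in human cells. Ifit1 had 467, 520.1, 518 and 439 normalized counts in Tet2-deficient air libraries, against 1490.0, 1063, 1211 and 699 in WT air libraries. In physioxia Ifit1 had 489, 743, 470.2 and 534 in Tet2-deficient libraries, against 2223, 1442, 871 and 625 in WT libraries. The 4 Tet2-deficient air values were tightly grouped, with a coefficient of variation of 8.18%, against 29.5% in WT air and 55.0% in WT physioxia. Ifit1 was lower, with a log2 difference of -1.15 ± 0.31 in air (limma adjusted p = 0.00508) and -1.06 ± 0.31 in physioxia (limma adjusted p = 0.0076), and only in air did the groups not overlap. Without WT replicates 1 and 2 the log2 difference was -0.92 in air (limma adjusted p = 0.0558) and -0.42 in physioxia (limma adjusted p = 0.156).

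Ifit3 stood at 36.01, 52.97, 54.04 and 44.02 normalized counts in Tet2-deficient air libraries, against 304, 173, 153 and 87.1 in WT air libraries. Its physioxia values were 35.4, 84.3, 54.4 and 50.7 in Tet2-deficient libraries, against 488, 286, 119.7 and 39.3 in WT libraries. WT physioxia had the largest coefficient of variation of the 10 members in any group, 85.2%, and its replicate 4 lay below 3 of the 4 Tet2-deficient physioxia libraries. Ifit3 was lower, with a log2 difference of -1.80 ± 0.58 in air (limma adjusted p = 0.0123) and -1.57 ± 0.58 in physioxia (limma adjusted p = 0.0244). In air the difference was -1.30 without WT replicates 1 and 2 (limma adjusted p = 0.119) and -1.87 without Tet2-deficient replicates 3 and 4 (limma adjusted p = 0.0508). In physioxia, leaving out WT replicate 1 gave -1.03 (limma adjusted p = 0.0987), leaving out WT replicates 1 and 2 gave -0.35 (limma adjusted p = 0.527), and the call was also lost without WT replicate 2 or Tet2-deficient replicate 1 and in a fit of the physioxia groups alone (limma adjusted p = 0.0532). Its near copy Ifit3b was measured separately, at 21.8 ± 5.86 in Tet2-deficient air libraries and 51.3 ± 22.7 in WT air libraries, and how reads matching both genes were assigned is not given in the sources used here, so the split between them is uncertain.

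The 2′-5′ oligoadenylate synthetase family was represented by Oas1a, Oas2 and Oasl1. Oas1a (ENSMUSG00000052776, chr5:120896256-120907521, minus strand) and Oas2 (ENSMUSG00000032690, chr5:120730333-120749853, minus strand) encode enzymes that answer double-stranded RNA with a second messenger for RNase L. Oas1a had 597, 599, 532 and 554 normalized counts in Tet2-deficient air libraries, against 814, 1001, 806 and 811 in WT air libraries. In physioxia it had 529, 568, 612 and 569 in Tet2-deficient libraries, against 960.4, 1582, 877 and 778 in WT libraries. The groups did not overlap in either condition, and the Tet2-deficient libraries varied little, with coefficients of variation of 5.77% in air and 5.91% in physioxia. Oas1a was lower, with a log2 difference of -0.58 ± 0.17 in air (limma adjusted p = 0.0075) and -0.83 ± 0.17 in physioxia (limma adjusted p = 0.000879). The air call was lost without WT replicates 1 and 2 (limma adjusted p = 0.0597) and without Tet2-deficient replicates 3 and 4 (limma adjusted p = 0.064). Reads may also be shared with its near copy Oas1g, whose log2 difference was -0.05 ± 0.34 in air (limma adjusted p = 0.894) and -0.99 ± 0.34 in physioxia (limma adjusted p = 0.0179).

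Oas2 passed the test in neither condition. It had 55.7, 61.7, 75.1 and 32.2 normalized counts in Tet2-deficient air libraries, against 107, 112, 119 and 61.2 in WT air libraries. In physioxia its counts were 57.9, 75.6, 23.1 and 59.3 in Tet2-deficient libraries, against 169, 64.6, 58.4 and 62.3 in WT libraries. WT physioxia replicate 1 stood far above the other 3 WT physioxia libraries, which lay within the Tet2-deficient range. The log2 difference was -0.83 ± 0.40 in air (limma adjusted p = 0.0663, 95% confidence interval -1.69 to 0.02) and -0.67 ± 0.40 in physioxia (limma adjusted p = 0.149, 95% confidence interval -1.52 to 0.19), so neither passed. Under DESeq2 on the recovered reads, quantile normalization and a fit of the air groups alone, Oas2 was called lower in air.

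Oasl1 (ENSMUSG00000041827, chr5:114923240-114937915, plus strand) lacks synthetase activity and is known in mice to restrain translation of Irf7 mRNA. Oasl1 had 115, 88.6, 241 and 129 normalized counts in Tet2-deficient air libraries, against 691, 464, 612 and 339.6 in WT air libraries. In physioxia Oasl1 had 170.1, 268, 158 and 193 in Tet2-deficient libraries, against 736, 364, 645 and 383 in WT libraries. No Tet2-deficient library reached the lowest WT library in either condition. Oasl1 was lower, with a log2 difference of -1.92 ± 0.32 in air (limma adjusted p = 0.000149) and -1.39 ± 0.32 in physioxia (limma adjusted p = 0.00173), and no alternative ended either call.

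Mx1 (ENSMUSG00000000386, chr16:97447035-97462907, minus strand) and Mx2 (ENSMUSG00000023341, chr16:97535308-97560900, plus strand, annotated as a polymorphic pseudogene) are neighbours that encode dynamin-like GTPases, Mx1 being the classical mouse block to influenza virus. Mx1 had 22.1, 41.7, 30.02 and 30.5 normalized counts in Tet2-deficient air libraries, against 176, 146, 168 and 80.4 in WT air libraries. Its level in physioxia was 11.8, 57.3, 12.2 and 42.1 in Tet2-deficient libraries, against 230.1, 187, 99.3 and 76.8 in WT libraries. The genotypes did not overlap, although Tet2-deficient physioxia split into 2 libraries at 11.8 and 12.2 and 2 at 57.3 and 42.1, the low pair resting on 10 and 9 reads. Mx1 was lower, with a log2 difference of -2.14 ± 0.48 in air (limma adjusted p = 0.00171) and -2.41 ± 0.48 in physioxia (limma adjusted p = 0.00073).

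Mx2 had 27.8, 39.1, 49.04 and 49.9 normalized counts in Tet2-deficient air libraries, against 223, 200.2, 174 and 87.1 in WT air libraries. Physioxia gave 41.3, 64.8, 44.8 and 66.2 in Tet2-deficient libraries, against 304, 84.8, 131 and 89.6 in WT libraries. The genotypes were again apart, but in physioxia by a narrow margin, since the highest Tet2-deficient library held 66.2 and the lowest WT library 84.8. Mx2 was lower, with a log2 difference of -1.97 ± 0.38 in air (limma adjusted p = 0.000551) and -1.30 ± 0.38 in physioxia (limma adjusted p = 0.0078).

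Rsad2 (ENSMUSG00000020641, chr12:26442746-26456452, minus strand) encodes viperin, an enzyme that makes a chain-terminating nucleotide against viral RNA polymerases. Rsad2 had 161, 173, 241 and 190.5 normalized counts in Tet2-deficient air libraries, against 2382, 1397, 1298 and 941 in WT air libraries. In physioxia Rsad2 had 161, 224, 151 and 241 in Tet2-deficient libraries, against 2223, 980.4, 1903 and 1263 in WT libraries. The highest Tet2-deficient library of either condition was well under the lowest WT library. Rsad2 was lower, with a log2 difference of -2.90 ± 0.28 in air (limma adjusted p = 9.58e-07) and -2.99 ± 0.28 in physioxia (limma adjusted p = 7.24e-07), and its calls, like those of Mx1 and Oasl1, held under every alternative run.

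**Figure D2:**
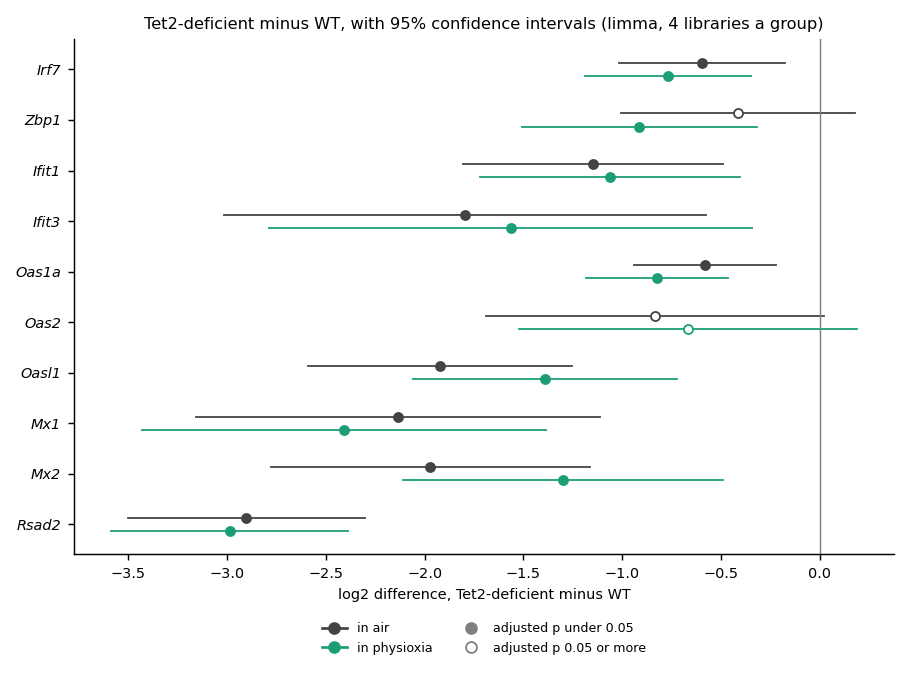
Log2 difference of each member, Tet2-deficient minus WT, with its 95% confidence interval from limma, in air and in physioxia; filled points have an adjusted p under 0.05. All 20 estimates lie below 0, from -2.99 for Rsad2 in physioxia to -0.42 for Zbp1 in air, and 3 of the 20 are open points (Oas2 in both conditions and Zbp1 in air).

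The order of the members within a group also differed between genotypes. On normalized counts per kilobase of annotated exon, the level in Tet2-deficient air libraries was highest for Oas1a (303), then Ifit1 (183), Irf7 (103), Oasl1 (54.9) and Rsad2 (44.2). Below these came Ifit3 (26.8), Zbp1 (26.5), Oas2 (12.6), Mx2 (11.47) and Mx1 (8.21). In WT air libraries the same scale gave Oas1a (455), Ifit1 (420), Rsad2 (347), Oasl1 (202) and Irf7 (153), and then Ifit3 (103), Mx2 (47.3), Mx1 (37.7), Zbp1 (36.0) and Oas2 (22.4). Rsad2 was thus the fifth member by level in Tet2-deficient air and the third in WT air. In Tet2-deficient air the neighbours Oasl1 and Rsad2, Ifit3 and Zbp1, and Oas2 and Mx2 differed by less than the larger of their SDs over libraries. In WT air this held for Oas1a and Ifit1, Ifit1 and Rsad2, Oasl1 and Irf7, Irf7 and Ifit3, Mx2 and Mx1, and Mx1 and Zbp1. The physioxia groups kept the first 6 places of the same genotype's air group in the same order.

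Counting all 55450 annotated genes in the adjustment, since how the 6288 tabulated genes were chosen is not given in the sources used here, left 5 of 10 members called lower in air and 5 in physioxia. The members lost in air were Irf7, Ifit3 and Oas1a, with limma adjusted p of 0.134, 0.112 and 0.0681, and those lost in physioxia were Ifit1, Ifit3, Mx2 and Zbp1, with limma adjusted p of 0.0689, 0.221, 0.0708 and 0.0884. Without WT replicates 1 and 2, 4 of 10 members stayed lower in air and 5 in physioxia, Rsad2, Mx1, Mx2 and Oasl1 among them in both.

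Oxygen moved none of the members past the threshold. In Tet2-deficient cells 0 of 10 differed between physioxia and air in limma, beside 0% of all genes, and in WT cells 0 of 10 differed, beside 5.76% of all genes (352 of 6110). At an unadjusted p under 0.05, 0 of 10 members passed in either genotype, against 280 and 1189 of 6110 genes in Tet2-deficient and WT cells. Neither edgeR nor DESeq2 on the recovered reads called a member in either genotype. The limma values given here were from the fit without pairing in both genotypes. In WT cells, where the replicate numbers were taken to pair the libraries, a fit with the number as a block called 0 of 10 members and 462 of all genes. That fit blocked the Tet2-deficient libraries by number too. Which Tet2-deficient physioxia and air libraries came from one preparation could not be read from their numbers. The median log2 difference of the members, physioxia minus air, was 0.0018 in Tet2-deficient cells and 0.04 in WT cells, beside -0.0041 and 0.01 over all genes.

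The largest physioxia-minus-air estimate was that of Oasl1 in Tet2-deficient cells, at 0.53 ± 0.32 (limma adjusted p = 1, 95% confidence interval -0.14 to 1.20), where the library means were 197 ± 49.4 in physioxia and 143 ± 67.4 in air (SD, n = 4 each). In WT cells the largest was that of Mx2, at -0.29 ± 0.38 (limma adjusted p = 0.728, 95% confidence interval -1.09 to 0.52). The intervals came from the fit without pairing and set what could have been seen in that fit. For Oas1a, the most even member, they ran from -0.36 to 0.36 in Tet2-deficient cells and from -0.12 to 0.60 in WT cells, whereas for Ifit3 they ran from -1.01 to 1.43 and from -1.24 to 1.20. A log2 change of 1 in either direction lay inside both intervals of Ifit3 and outside both intervals of Oas1a.

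**Figure D3:**
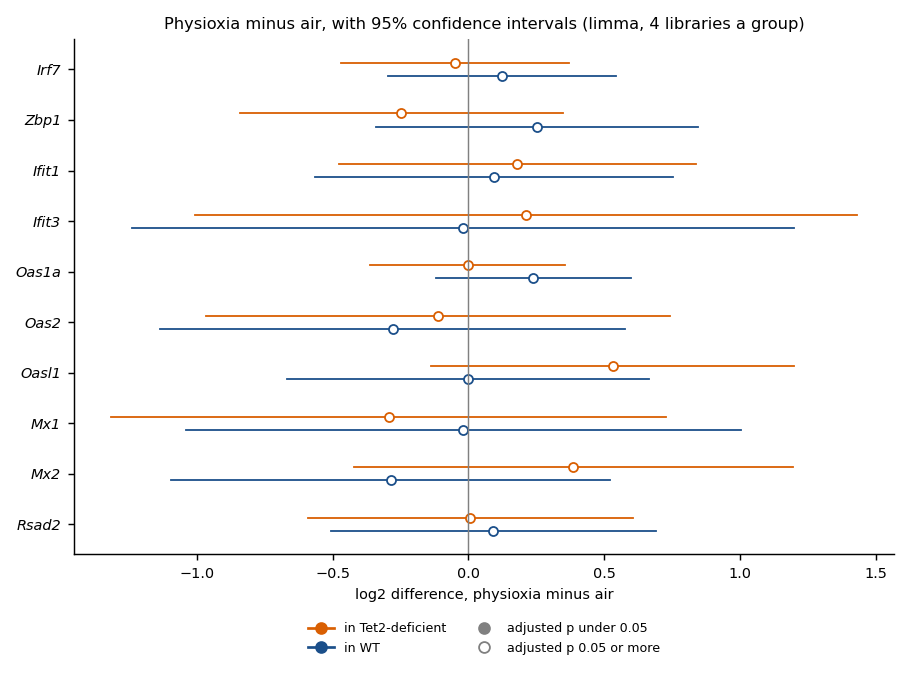
Log2 difference of each member, physioxia minus air, with its 95% confidence interval from limma without pairing of libraries, in Tet2-deficient and in WT cells. All 20 intervals include 0 and all points are open (adjusted p of 0.05 or more); the estimates run from -0.29 to 0.53.

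The genotype difference was also compared between oxygen conditions directly. The interaction, the genotype difference in physioxia minus that in air, passed the test for 0 of 10 members in limma, beside 0% of all genes (546 of 6110 at an unadjusted p under 0.05, no member among them). DESeq2 called 10 of all genes and edgeR 0, with no member in either. The estimates ran from -0.50 ± 0.40 for Zbp1 (limma adjusted p = 0.679) to 0.67 ± 0.54 for Mx2 (limma adjusted p = 0.686). Zbp1 was called in physioxia and not in air, but with this test the difference between the conditions was not shown. The genotype comparisons in air and in physioxia share no library, though the cells of both conditions came from the same enriched preparations.

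Libraries of the same WT group also differed in the members' level. Summed over the 10 members, normalized counts of replicates 1 to 4 were 1873, 1998, 2411 and 1911 in Tet2-deficient air, against 6980, 5389, 5188 and 3647 in WT air. In physioxia the sums were 1902, 2585, 1926 and 2226 in Tet2-deficient replicates, against 8202, 5981, 5425 and 3885 in WT replicates. No Tet2-deficient sum reached the lowest WT sum. In both WT groups replicate 1 was the highest library and replicate 4 the lowest: in air, 9 of 10 members had their lowest value in replicate 4, and in physioxia 6 of 10. Single members did not all follow the sum, since WT physioxia replicate 2 held the highest value of 3 members (Oas1a, Irf7 and Zbp1) and the lowest of 3 others (Mx2, Oasl1 and Rsad2). Among the Tet2-deficient libraries, air replicate 3 and physioxia replicate 2 each held the highest value of 6 of 10 members.

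Markers of several mature cell types were lower in Tet2-deficient libraries, as the members were, whereas erythroid markers were higher. Of 22 T and NK cell markers 19 were measured, with 16 called lower and 1 higher in Tet2-deficient than in WT air libraries, beside 37.4% lower and 42.1% higher of all genes. Their summed level was 18518 to 26617 in Tet2-deficient and 30930 to 36596 in WT air libraries, and 18674 to 26425 in Tet2-deficient and 28222 to 46549 in WT physioxia libraries. Such a sum rests mainly on the most abundant markers. The median log2 difference of the 19 was -1.58 in air and -1.70 in physioxia. Of these markers Cd8b1 alone was at 0 reads, in Tet2-deficient physioxia replicates 2 and 3. Plasmacytoid dendritic cells, the main producers of type I interferon, were represented by 8 of 13 markers, which summed to 8181 to 9093 in Tet2-deficient and 8770.0 to 15704 in WT air libraries, and to 7047 to 7729 in Tet2-deficient and 8683 to 13989 in WT physioxia libraries. None of these was at 0 reads, and 6 of the 8 were lower in air, beside 37.4% of all genes. Bst2, 1 of those lower, is itself an interferon-stimulated gene and is counted among the other such genes below, so the list is not separate from them. Monocyte and macrophage markers, 10 of 20 measured, summed to 19739 to 25360.0 in Tet2-deficient and 32909 to 58512 in WT air libraries, with 9 lower. In physioxia they summed to 19122 to 23078 in Tet2-deficient and 31356 to 59177 in WT libraries, with 7 lower, beside 33.6% of all genes. Clec4a1 was at 0 reads in WT air replicate 3.

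The WT replicates were ordered as in the sums of the members by the mean log2 level of some lists, not of all. The mean log2 level of T and NK cell markers was 4.96 to 5.75 over the 8 Tet2-deficient libraries, against 7.95, 7.41, 6.57 and 6.28 in WT air replicates 1 to 4 and 8.13, 7.69, 6.70 and 6.14 in WT physioxia replicates 1 to 4. That of plasmacytoid dendritic cell markers was 6.97 to 7.39 in Tet2-deficient libraries, against 9.05, 8.55, 7.92 and 7.62 in WT air and 8.99, 8.66, 8.13 and 7.55 in WT physioxia. Mature neutrophil markers were ordered in the same way, at 9.21, 8.48, 7.72 and 7.38 in WT air and 9.45, 8.90, 8.68 and 8.56 in WT physioxia. Their median log2 difference between genotypes was -2.37 in air and -2.51 in physioxia. Dendritic cell markers were so ordered too, at 8.53, 8.04, 7.88 and 7.34 in WT air and 8.76, 8.71, 7.67 and 7.57 in WT physioxia. On summed levels the order of T and NK cell markers was another, at 36596, 32117, 30930 and 33945 in WT air and 33599, 46549, 28222 and 30677 in WT physioxia replicates 1 to 4. On summed levels, basophil and mast cell markers were lowest in replicates 1 and 2 of WT air, where replicates 1 to 4 had sums of 68848, 60467, 101511 and 86547. In WT physioxia their sums were 66169, 105654, 102016 and 79113, with replicate 2 the highest. Erythroid markers went the other way, with 17 of 18 measured and 16 higher in Tet2-deficient air libraries, beside 42.1% of all genes. They summed to 136438 to 396785 there, against 39462 to 63359 in WT air libraries, and none was at 0 reads. They were highest in Tet2-deficient air replicate 3 and physioxia replicate 2, the same libraries that led the Tet2-deficient members. LSK markers were higher in Tet2-deficient air libraries for 7 of 7 measured, at 11689 to 18158 against 7236 to 9126 in WT air libraries. In the same comparison 8 of 9 mature neutrophil, 3 of 6 dendritic cell, 7 of 10 basophil and mast cell and 1 of 2 B cell markers were lower in Tet2-deficient air libraries, beside 37.4% of all genes. Higher there were 1 dendritic cell and 1 basophil and mast cell marker, beside 42.1% of all genes. The dendritic cell and B cell lists are too short to set their shares apart from that of all genes. The part of these differences in the level of the members was not tested.

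**Figure D4:**
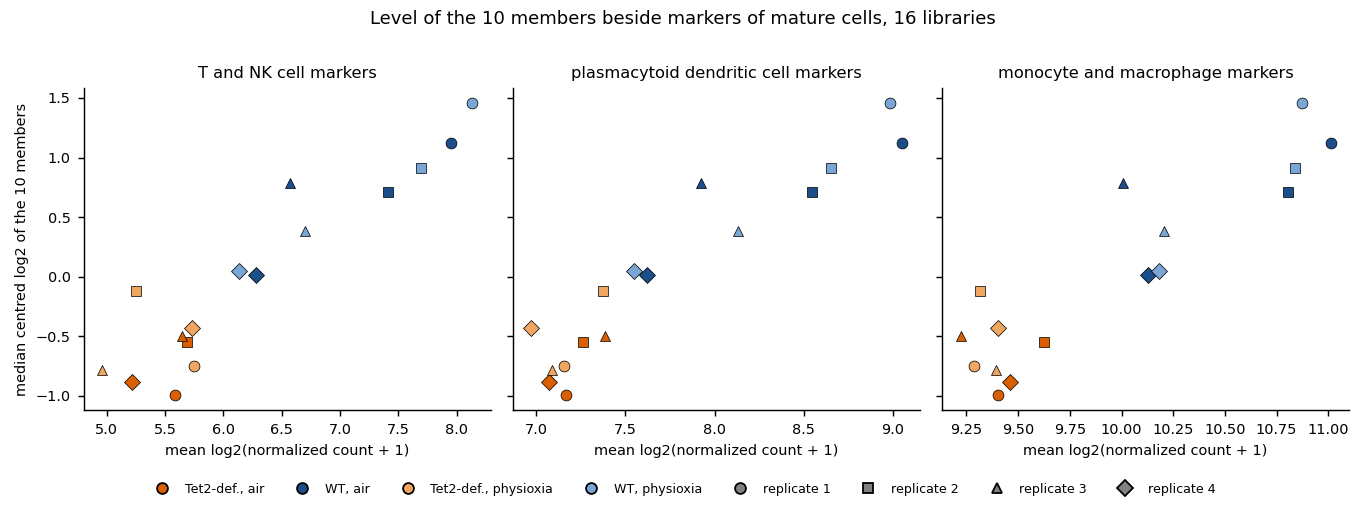
Median centred log2 level of the 10 members (vertical axis) against the mean log2(normalized count + 1) of T and NK cell, plasmacytoid dendritic cell, and monocyte and macrophage markers (horizontal axes), 1 point per library, coloured by group and shaped by replicate. The 8 Tet2-deficient libraries sit at the lower left of each panel, between -0.996 and -0.117 on the vertical axis, and the 8 WT libraries run from 0.02 to 1.46, with replicate 1 of both WT groups at the upper right. Monocyte and macrophage markers did not follow the replicate order in WT air, at 11.01, 10.80, 10.01 and 10.13 in replicates 1 to 4. Mature neutrophil and dendritic cell markers, whose mean log2 levels followed it in both WT groups, are not drawn. Basophil and mast cell, B cell and erythroid markers, whose mean log2 levels did not follow it, are not drawn either.

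Many signalling genes above the members differed between genotypes, as did most genes tested. Of all genes, 37.4% were lower and 42.1% higher in air, and 33.6% lower and 35.9% higher in physioxia. Of 3 measured interferon and interferon-inducing ligands of 14 listed, 2 fell and 1 rose in Tet2-deficient air libraries. In physioxia 2 fell and 1 was not called. The values that follow are those of the 2 that fell, Ifng and Il12a. Ifng, which encodes interferon gamma, averaged 7.96 ± 4.65 normalized counts in Tet2-deficient air libraries, against 85.1 ± 83.6 in WT air libraries, and 9.71 ± 5.35 in Tet2-deficient physioxia libraries, against 134 ± 104 in WT physioxia libraries (SD, n = 4 each). It was lower, with log2 differences of -2.86 ± 0.73 in air and -3.37 ± 0.73 in physioxia (limma adjusted p = 0.00372 and 0.00133), although the air difference was -1.63 without WT replicates 1 and 2 (limma adjusted p = 0.0776) and -2.26 without Tet2-deficient replicates 3 and 4 (limma adjusted p = 0.0515). Il12a, a subunit of interleukin 12, was lower, at -0.63 ± 0.12 in air and -0.38 ± 0.12 in physioxia (limma adjusted p = 0.000509 and 0.0115). No type I interferon gene was among the 3 genes measured.

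The measured receptor chains were lower in Tet2-deficient cells. Of 13 listed receptors and transducers 5 were measured, and 4 fell in each condition, beside 37.4% of all genes in air and 33.6% in physioxia. Ifngr2 differed most, at 749 ± 55.5 in Tet2-deficient and 1804 ± 313 in WT air libraries, a log2 difference of -1.25 ± 0.13 (limma adjusted p = 2.3e-06). The type I receptor chains Ifnar1 and Ifnar2 fell by 0.74 ± 0.15 and 0.59 ± 0.09 in air (limma adjusted p = 0.000709 and 5.42e-05) and fell by 0.45 ± 0.15 and 0.63 ± 0.09 in physioxia (limma adjusted p = 0.0146 and 3.15e-05). Tyk2 gave -0.46 ± 0.27 in air (limma adjusted p = 0.123) and 0.08 ± 0.27 in physioxia (limma adjusted p = 0.808), and was called lower in air in a fit of the air groups alone (limma adjusted p = 0.00992).

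Among sensors and adaptors, 8 of 27 listed were measured, and 6 were lower and 1 higher in each condition. The shares of all genes were 37.4% lower and 42.1% higher in air, and 33.6% lower and 35.9% higher in physioxia. Ticam1, the adaptor of Tlr3, fell by 1.07 ± 0.20 in air and 0.73 ± 0.20 in physioxia (limma adjusted p = 0.000503 and 0.00592). Irf5 and the chaperone of nucleic acid-sensing Toll-like receptors Unc93b1 fell by 0.76 ± 0.18 and 0.71 ± 0.11 in air (limma adjusted p = 0.0023 and 0.000105). Tlr3 went against them, with 20.5 ± 10.3 in Tet2-deficient and 3.45 ± 1.84 in WT air libraries, higher by 2.22 ± 0.57 (limma adjusted p = 0.00382), and its highest air library held 30.0 normalized counts. Without Tet2-deficient air replicates 3 and 4 the Tlr3 difference was 1.59 (limma adjusted p = 0.0744). Of 6 measured negative regulators, 3 fell and 2 rose in each condition, beside the same shares of all genes. Irf2bp2 and the phosphatase Ptpn1 fell by 0.94 ± 0.16 and 0.71 ± 0.11 in air, and Socs3 and Nlrc3 rose by 0.38 ± 0.17 and 0.55 ± 0.24, but the air calls of Socs3 and Nlrc3 did not hold. Both were lost under TMM and quantile normalization, edgeR and DESeq2, that of Nlrc3 also with the replicate number as a block (limma adjusted p = 0.0527), and with 1 of the 16 libraries left out at a time Socs3 was called in 3 fits and Nlrc3 in 7.

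The other interferon-stimulated genes did not all follow the 10 members. Of 33 measured genes with antiviral roles, from 68 listed, 15 were lower and 11 higher in Tet2-deficient air libraries, with a median log2 difference of -0.15, and 16 were lower and 9 higher in physioxia, with a median of -0.36. Of all genes tested, 37.4% were lower and 42.1% higher in air, and 33.6% lower and 35.9% higher in physioxia. Slfn2, a schlafen gene of lymphocytes and monocytes, fell by 2.04 ± 0.35 in air, the chemokine Cxcl10 by 1.89 ± 0.21 and the cytidine deaminase Apobec3 by 1.33 ± 0.10 (limma adjusted p = 0.000193, 4.51e-06 and 4.78e-08). Bst2, the tetherin that holds budding virions at the cell surface, fell by 0.74 ± 0.12 (limma adjusted p = 0.000163). The double-stranded RNA kinase Eif2ak2 had 819 ± 145 normalized counts in Tet2-deficient and 474 ± 45.6 in WT air libraries and was higher by 0.77 ± 0.19 (limma adjusted p = 0.00302), or by 0.57 without Tet2-deficient air replicates 3 and 4 (limma adjusted p = 0.0555). Slfn9 and Lgals3bp were also higher, by 1.06 ± 0.16 and 0.59 ± 0.09 (limma adjusted p = 5.96e-05 and 0.000117).

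Interferon-induced GTPases and antigen presentation genes, 17 measured of 35 listed, included 9 higher and 3 lower in air (median 0.52) and 7 higher and 6 lower in physioxia (median 0.40), beside 42.1% of all genes tested higher in air and 35.9% in physioxia. The guanylate-binding protein Gbp7 averaged 2113 ± 144 in Tet2-deficient and 1027 ± 82.8 in WT air libraries, higher by 1.04 ± 0.11 (limma adjusted p = 3.57e-06), and Tgtp1 was higher by 1.47 ± 0.29 (limma adjusted p = 0.000605). Of the partners of Zbp1 in cell death, 7 measured of 13, 3 fell and 2 rose in air, and 4 fell and 1 rose in physioxia. The shares of all genes that fell were 37.4% in air and 33.6% in physioxia, and those that rose are given above. The inflammasome genes Nlrp3 and Casp4 fell by 1.78 ± 0.31 and 1.30 ± 0.13 in air (limma adjusted p = 0.000242 and 1.31e-06). Ripk1 rose by 1.25 ± 0.33 in air (limma adjusted p = 0.0044), where Tet2-deficient libraries ran from 577 to 1879 and WT libraries from 302 to 815, and gave 0.40 ± 0.33 in physioxia (limma adjusted p = 0.292). Without Tet2-deficient air replicates 3 and 4 its air difference was 0.62 (limma adjusted p = 0.108).

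**Figure D5:**
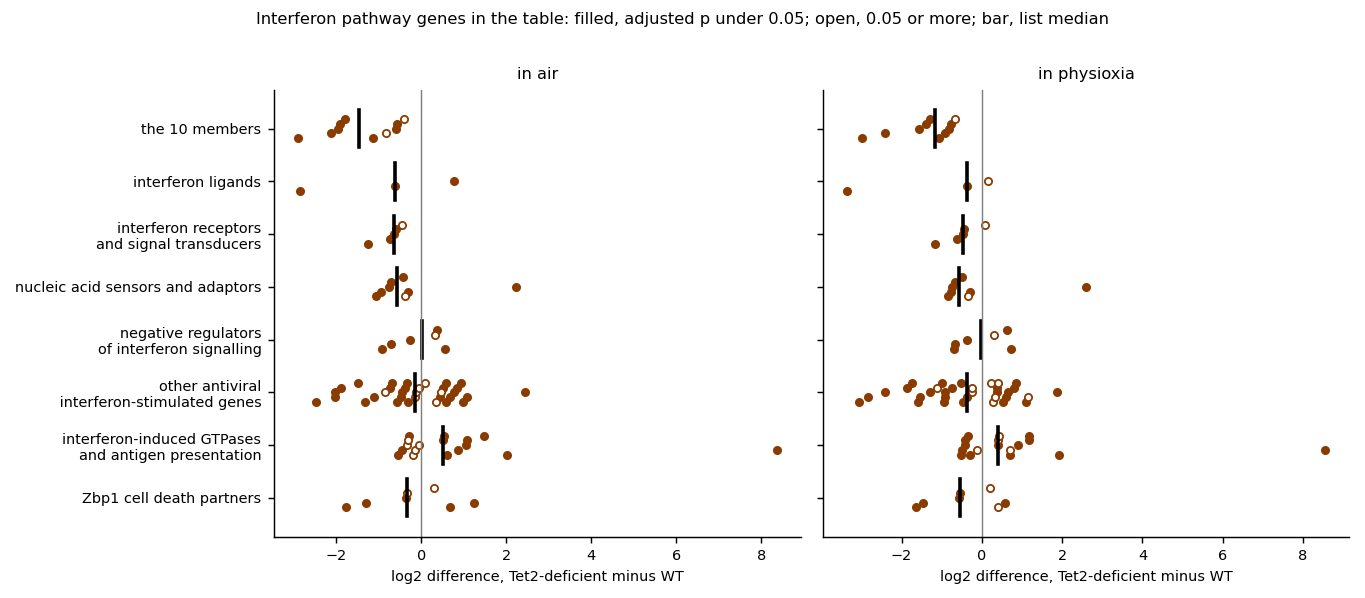
Log2 difference, Tet2-deficient minus WT, of every measured gene in the member list and 7 interferon pathway lists, in air and in physioxia; filled points have an adjusted p under 0.05, open points do not, and bars are list medians. The member median lies at -1.47 in air and -1.18 in physioxia, while the GTPase and antigen presentation list has medians of 0.52 and 0.40.

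Other genes were ranked by the likeness of their profile over the 16 libraries to that of the members. Likeness was the root mean square of the log2 differences between a gene's centred profile and the median centred profile of the 10 members, over 4733 genes with a mean of at least 50, where the median gene differed by 0.896. The nearest were Ckb, the brain-type creatine kinase, at 0.246, Trbc1, a T cell receptor constant chain, at 0.255, Gpr183, an oxysterol receptor of lymphocytes, at 0.260 and Evl at 0.264. Ppfia4, Tcf7, Evi2a and Itgb7 followed at 0.288 to 0.310. Among the members themselves Ifit1 lay nearest to the median profile, at 0.156, and Rsad2 farthest, at 0.885. Mx2 came next after Ifit1, at 0.375, so all members but Ifit1 lay farther from that profile than the genes just named. Trbc1 averaged 68.0 ± 14.5 normalized counts in Tet2-deficient air libraries, against 161 ± 40.2 in WT air libraries, and 61.5 ± 6.97 in Tet2-deficient physioxia libraries, against 198 ± 101 in WT physioxia libraries (SD, n = 4 each).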

How the data were processed

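RNA from 16 libraries was prepared with a low-input kit and sequenced in paired-end mode, per the labels' protocols. The submitters' processing notes name FastQC, cutadapt, STAR, HTSeq, DESeq2 and the GRCm38 build, with no versions, roles or strand setting. The authors deposited a normalized signal: gene counts divided by a size factor for each library. The value of 1 read was recovered from the smallest steps, and 100% of values were then whole within 0.01. For this report log2(value + 1) of genes with a value of at least 10 in at least 4 libraries (6110 kept, 178 left out) was fitted over all 4 groups with limma 3.58.1 under R 4.3.3, with the prior variance trended on intensity and two-sided tests, with Benjamini-Hochberg adjustment and a threshold of 0.05. The fit was tested on simulated data. A fold change on this scale understates that of low genes. edgeR 4.0.16 and DESeq2 1.42.0 were run on the recovered reads as alternatives, besides other pseudocounts, filters, scalings, a replicate block, removal of libraries and adjustment over every annotated gene. Ensembl identifiers were matched to GENCODE M21 names for 6278 genes (10 unmatched).

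In WT cells same-numbered physioxia and air libraries deviated together (correlations of 0.332, 0.178, 0.162 and 0.331), so the numbers were taken to pair them in the replicate block. The block used the numbers of the Tet2-deficient libraries as well. Enriched cells were divided between oxygen conditions, per the labels' protocols. The reported tests and intervals between oxygen conditions came from the fit without that block. The block changed no call of a member in WT cells. The members, gene lists, marker lists and tests were chosen with earlier results of these data known. The text names all 10 members, Tet2, genes of the interferon lists (from the larger lists those of smallest p over the genotype comparisons and those higher in Tet2-deficient cells), and the 8 genes most like the members. P-values measure the spread between the replicate libraries of a group, taken as independent and without use of their matching. Air and physioxia libraries came from the same enriched preparations, which the reported fit did not account for. Intervals cover counting and replicate error only.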

Additional observations from a re-analysis of the deposited data

Results flagged for a closer look

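Among 40 sets of 4 libraries (10 members in 4 groups), 2 held a library far from the other 3, where chance alone flags about 1 in 20. Oas1a in WT air had replicate 2 at 1001 normalized counts and the others at 806 to 814, a gap of 0.958 of the group's range. Oas2 in WT physioxia had replicate 1 at 169 and the others at 58.4 to 64.6, a gap of 0.944 of the range. Replicate 2 was also the highest WT physioxia library for Oas1a, and replicate 1 was the highest WT physioxia library for 7 of the 10 members.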

How the results depend on the processing

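The count of members called lower moved with the libraries used and with the number of genes adjusted over. In air, 8 members were called; without WT air replicates 1 and 2 there were 4, with every annotated gene counted 5, with quantile normalization 10, and with 1 library left out at a time 8 to 9. In physioxia, 9 were called; with every annotated gene counted there were 5, without WT physioxia replicates 1 and 2 there were 5, and with 1 library left out at a time 8 to 9. That last pair of WT physioxia libraries was chosen for removal after seeing the data. Both WT pairs left out had the highest sums of the members in their group, so their removal lowers the WT sum by construction. Adjusting over more genes raises every adjusted p by construction; the other causes were not tested. Over all genes, the 4858 calls in air fell to 2434 with every annotated gene counted and 2760 without Tet2-deficient air replicates 3 and 4 (4050 to 5274 with 1 library left out), and the 4243 in physioxia fell to 2477 with every annotated gene counted (3842 to 4306). Quantile normalization shifted the median log2 difference of all genes in air by -0.12; relative to that shift the members stayed lower. The 352 genes called between physioxia and air in WT cells were 548 with DESeq2 and 0 with every annotated gene counted, without WT air replicates 1 and 2, or without WT physioxia replicates 1 and 2, and 128 to 554 with 1 library left out. In Tet2-deficient cells the 0 became 1 with a pseudocount of 10, 8 with DESeq2 and 152 without Tet2-deficient air replicates 3 and 4 (0 to 1 with 1 library left out). For the interaction it was 10 with DESeq2 and 0 to 1 with 1 library left out.

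With the replicate number as a block (replicate block), 8 members were called in air, 9 in physioxia, 0 between physioxia and air in Tet2-deficient cells, 0 in WT cells and 0 for the interaction, and over all genes 4822, 4203, 0, 462 and 0. Deviations from the group mean of same-numbered Tet2-deficient libraries correlated at 0.322, -0.275, 0.0423 and -0.00608 between oxygen conditions, so the numbers were not shown to pair those libraries. The block for the oxygen comparisons used these numbers all the same, with both genotypes in 1 fit. Its spread, also for WT cells, thus comes in part from Tet2-deficient pairs that may be wrong. Physioxia replicate 2 correlated at 0.5 with an air library of another number, and which libraries shared a preparation is not given in the sources used here; no other pairing was fitted. Nor were the numbers shown to pair genotypes, where the correlations ran from -0.118 to 0.116, although the block used them in the genotype comparisons.

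The estimates between oxygen conditions lay near 0 and none was called, so their sign was not stable. For WT physioxia minus WT air, the sign changed for Ifit1 -0.54, Oas1a -0.049, Irf7 -0.098, Zbp1 -0.20 without WT physioxia replicates 1 and 2, and for Ifit3 0.013 with a pseudocount of 10, and for Ifit3 0.32, Mx1 0.00016 with edgeR, and for Ifit3 0.31 with DESeq2, and for Ifit3 0.47, Mx1 0.21, Mx2 0.10, Oasl1 0.15 without WT air replicates 1 and 2. With 1 library left out at a time, the estimates for WT physioxia minus WT air ran for Ifit1 -0.22 to 0.39, Ifit3 -0.55 to 0.65, Mx1 -0.28 to 0.25, Oasl1 -0.20 to 0.16, Rsad2 -0.11 to 0.34. For Tet2-deficient physioxia minus Tet2-deficient air, the sign changed for Irf7 0.21 without Tet2-deficient air replicates 3 and 4, and for Rsad2 -0.036 with TMM, and for Rsad2 -0.045 with quantile normalization, and for Rsad2 -0.0091 with edgeR. With 1 library left out at a time, the estimates for Tet2-deficient physioxia minus Tet2-deficient air ran for Ifit3 -0.0026 to 0.41, Mx1 -0.69 to 0.038, Oas1a -0.038 to 0.031, Oas2 -0.35 to 0.24, Irf7 -0.14 to 0.14, Rsad2 -0.11 to 0.12. For the interaction, the sign changed for Ifit1 -0.14, Ifit3 -0.26, Oas2 -0.0089 without WT air replicates 1 and 2, and for Ifit3 -0.089 with edgeR, and for Ifit3 -0.060, Mx1 0.0033 with DESeq2, and for Mx1 0.35, Oas1a 0.046, Irf7 0.049 without WT physioxia replicates 1 and 2, and for Irf7 0.088, Rsad2 0.095 without Tet2-deficient air replicates 3 and 4. With 1 library left out at a time, the estimates for the interaction ran for Ifit1 -0.21 to 0.40, Ifit3 -0.44 to 0.76, Mx1 -0.67 to 0.058, Oas2 -0.074 to 0.53, Irf7 -0.31 to 0.012, Rsad2 -0.33 to 0.11. For Tet2-deficient minus WT in physioxia, the sign changed for Tyk2 -0.051 with edgeR, and for Tyk2 -0.045 with DESeq2, and for Tyk2 -0.39 without WT physioxia replicates 1 and 2. With 1 library left out at a time, the estimates for Tet2-deficient minus WT in physioxia ran for Tyk2 -0.29 to 0.32.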
